A study of Mus musculus with 9 samples.

Results

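Collagens are the structural proteins of connective tissue and of the sheets that carry epithelia, and a mouse makes them from many alpha chain genes. The expression table held 44 genes whose symbol has the form of a collagen alpha chain, among 24346 genes, and all 44 were followed here. The tissue was the epididymis, from the initial segment through the caput, dissected in 1 piece (IS-caput) from mice aged 14 weeks. RNA of 3 genotypes was sequenced, with 3 libraries each. The Nicol-/- libraries came from mice without NICOL, a small secreted protein, made with CRISPR/Cas9 on a B6D2F1 background by deleting the coding sequence of Nicol from both alleles. The Ros1-/- libraries came from mice of an existing line without ROS1, the receptor tyrosine kinase of the epididymal epithelium, for which the labels give no strain. The Nicol+/- libraries, spelled Nicole+/- in the labels, served as controls of both knockouts and themselves carry 1 Nicol-null allele. No library listed was of wild-type or Ros1+/- genotype. The series text speaks of 4 samples per genotype and 3 were listed. Because no label says that the libraries of a genotype came from different animals, the p-values measure the spread between libraries.

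Each collagen molecule is a triple helix of 3 alpha chains. Fibrillar collagens such as types I and III build the cable-like fibrils of connective tissue, type IV forms the network of basement membranes under epithelia and around muscle and vessels, and type VI forms beaded filaments between cells and fibrils. In the epididymis the duct epithelium rests on a basement membrane surrounded by smooth muscle and fibroblasts. Prolyl and lysyl hydroxylases, chaperones, proteases and lysyl oxidases act on the chains during and after their synthesis.

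Levels are given as RPKM, in which reads are divided by exon length and by library size, so that levels of genes of different length can be set beside each other. A gene was tested if it reached 1 RPKM in at least 3 of the 9 libraries, which left 13647 genes and 31 of the 44 collagens. Differences are log2 fold changes of RPKM + 1, a scale that understates the change of low genes, with their standard error (SE) from limma. A gene is called higher or lower where limma's Benjamini-Hochberg adjusted p, over all 13647 genes, was under 0.05. The remaining 13 collagens stayed below the filter and were not tested (Col2a1, Col6a6, Col9a1, Col9a2, Col9a3, Col10a1, Col11a2, Col19a1, Col22a1, Col24a1, Col25a1, Col26a1 and Col28a1).

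The libraries matched their labels for Nicol, listed under the symbol Gm1673, which was at 0 RPKM in the 3 Nicol-/- libraries and at 6.05 to 9.09 RPKM in Nicol+/-. In Ros1-/- Nicol was at 16.6 to 19.6 RPKM. Ros1 transcript was at 8.06 to 9.32 RPKM in Ros1-/- and 16.8 to 24.7 in Nicol-/-, below the 40.7 to 48.0 RPKM of Nicol+/- in both. Depth, estimated from the table, ran from 8189628 to 16595576 reads per library, and the lowest tested collagen of a library rested on an estimated 31.0 to 79.0 reads. Ribosomal RNA differed between the groups: the precursor Rn45s was at 1922 to 2579 RPKM in Nicol-/-, at 4700 to 17294 RPKM in Ros1-/- and at 592 to 1185 RPKM in Nicol+/-, highest in Ros1-/- replicate 3. The caput marker Gpx5 was at 27131 to 27644 RPKM in Nicol-/-, 25418 to 32589 in Ros1-/- and 23430 to 36736 in Nicol+/-. In RNA of whole tissue, fewer cells of a type and less RNA per cell cannot be told apart.

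Col6a4, which encodes an alternative chain of type VI collagen, had the highest mean level of the 44 genes over the 9 libraries, 42.5 RPKM. That rank was set by Nicol+/-: by group means Col6a4 was number 10 of the 44 in Nicol-/-, number 8 in Ros1-/- and number 1 in Nicol+/-. Its level was 21.1, 4.03 and 10.98 RPKM in Nicol-/-, 8.65, 7.88 and 21.01 RPKM in Ros1-/- and 68.8, 128 and 112 RPKM in Nicol+/-. Every library of either knockout lay below every Nicol+/- library, while the knockouts overlapped each other. The means were 12.04 ± 8.59 RPKM in Nicol-/-, 12.5 ± 7.37 in Ros1-/- and 103 ± 30.5 in Nicol+/- (SD, n = 3 each). Col6a4 fell by 3.19 on the log2 scale in Nicol-/- (SE 0.53, limma adjusted p = 0.00364) and by 3.02 in Ros1-/- (SE 0.53, limma adjusted p = 0.00396). Between Ros1-/- and Nicol-/- the difference was 0.17, with a 95% confidence interval from -1.02 to 1.36 (limma adjusted p = 0.904). The gene lies at chr9:105990318-106096828 on the minus strand (mm10), next to Col6a5 and Col6a6, which run in the same direction with 27854 bases between Col6a5 and Col6a4 and 27823 bases between Col6a6 and Col6a5. Exons of Gm36993 and Gm47575, on the other strand, overlap those of Col6a4. The libraries were stranded, and no source used here gives the strand setting of the counting.

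Type VI collagen is built from Col6a1 and Col6a2 chains with a chain of the third kind, for which Col6a3, Col6a4, Col6a5 and Col6a6 are the alternatives in the mouse. The constant chain Col6a1 moved the other way from Col6a4 in Nicol-/-. It read 56.4, 43.6 and 74.1 RPKM in Nicol-/-, 27.5, 32.3 and 35.7 RPKM in Ros1-/- and 33.9, 27.6 and 33.0 RPKM in Nicol+/-. The Nicol-/- libraries stood apart above the rest, and Ros1-/- overlapped Nicol+/-. Col6a1 rose by 0.83 in Nicol-/- (SE 0.18, limma adjusted p = 0.0123), and the difference for Ros1-/- was 0.01 (95% confidence interval from -0.39 to 0.42, limma adjusted p = 0.966). Col6a2, its constant partner, read 41.3, 31.0 and 67.4 RPKM in Nicol-/-, 16.8, 21.6 and 24.1 RPKM in Ros1-/- and 26.6, 19.5 and 28.1 RPKM in Nicol+/-. It too lay above every Nicol+/- library in Nicol-/-, with a log2 difference of 0.83 (SE 0.26) that missed the threshold (limma adjusted p = 0.0509) and passed it with the replicate block (limma adjusted p = 0.0116).

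The alternative chain Col6a3 read 9.92, 6.93 and 10.3 RPKM in Nicol-/-, 3.66, 5.01 and 4.71 RPKM in Ros1-/- and 5.65, 4.44 and 5.33 RPKM in Nicol+/-. Nicol-/- lay above both other groups without overlap. Col6a3 rose by 0.70 in Nicol-/- (SE 0.16, limma adjusted p = 0.0157), differed by -0.17 in Ros1-/- (limma adjusted p = 0.468), and was lower in Ros1-/- than in Nicol-/- by the direct test (log2 difference -0.87, SE 0.16, limma adjusted p = 0.0361). The call against Nicol+/- was lost without Nicol-/- replicate 1 or Nicol+/- replicate 2, with a limma adjusted p of at most 0.0531. Col6a5, another alternative chain, read 3.31, 2.13 and 5.94 RPKM in Nicol-/-, 0.41, 0.97 and 1.24 RPKM in Ros1-/- and 1.87, 1.04 and 1.71 RPKM in Nicol+/-. Its neighbour Col6a4 fell in both knockouts, whereas for Col6a5 the log2 differences were 0.85 in Nicol-/- (SE 0.29, limma adjusted p = 0.0671; 0.0326 with the replicate block) and -0.45 in Ros1-/- (SE 0.29, limma adjusted p = 0.294). Col6a6 was at 0.10 to 0.34 RPKM in Nicol-/-, 0.05 to 0.07 in Ros1-/- and 0.12 to 0.22 in Nicol+/-.

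**Figure D1:**
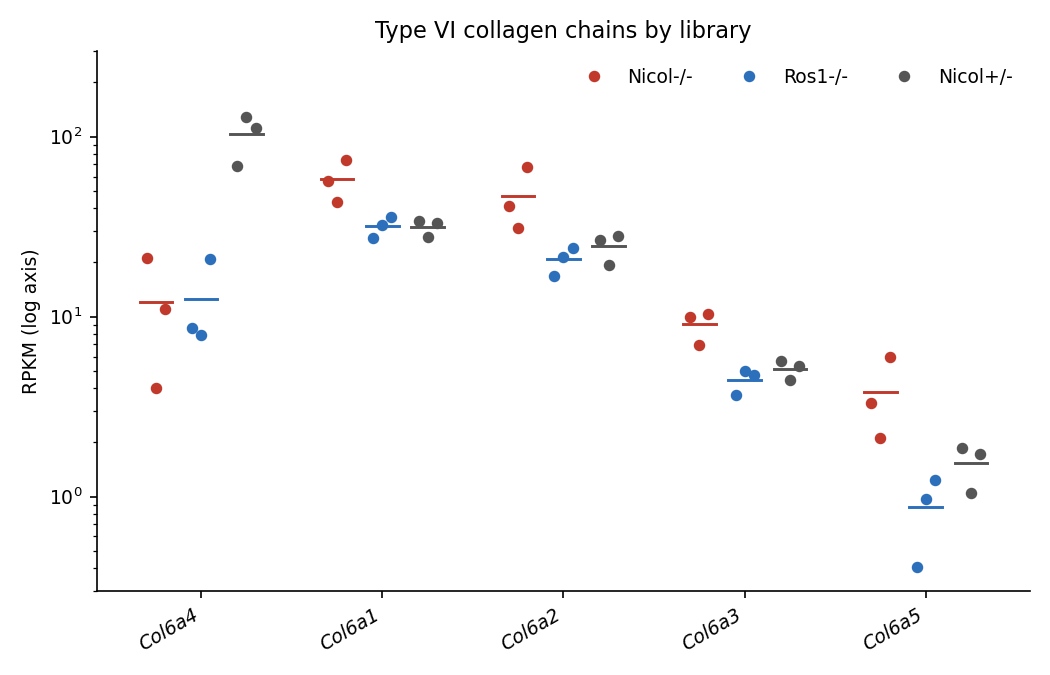
RPKM (log axis) of the 5 tested type VI chains in each library, as points, with the group mean as a bar, for Nicol-/-, Ros1-/- and Nicol+/- (n = 3 each). Col6a4 lies at 4.03 to 21.1 RPKM in Nicol-/- and 7.88 to 21.01 in Ros1-/-, below the 68.8 to 128 RPKM of Nicol+/-, while Col6a1 and Col6a3 are highest in Nicol-/-.

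The make-up of type VI transcripts shifted with these levels. Of the summed RPKM of the 4 alternative chains, Col6a4 made up 60.9%, 30.6% and 40.0% in the Nicol-/- libraries and 67.7%, 56.7% and 77.8% in Ros1-/-, against 89.9%, 95.8% and 94.0% in Nicol+/-. Col6a3 made up 28.6%, 52.6% and 37.6% in Nicol-/- and 28.6%, 36.0% and 17.4% in Ros1-/-, against 7.39%, 3.33% and 4.47% in Nicol+/-. Neither share overlapped between either knockout and Nicol+/-, and with 3 libraries against 3 an exact permutation test cannot go below p = 0.1. Col6a4 is most of the divisor in Nicol+/-, so its fall alone moves both shares, and they are no separate result. In Ros1-/- the share of Col6a3 was higher although its own level was not (log2 difference -0.17, limma adjusted p = 0.468). The summed level of the 4 chains was 13.2 to 34.7 RPKM in Nicol-/- and 12.8 to 27.0 RPKM in Ros1-/-, against 76.5 to 133 RPKM in Nicol+/-.

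**Figure D2:**
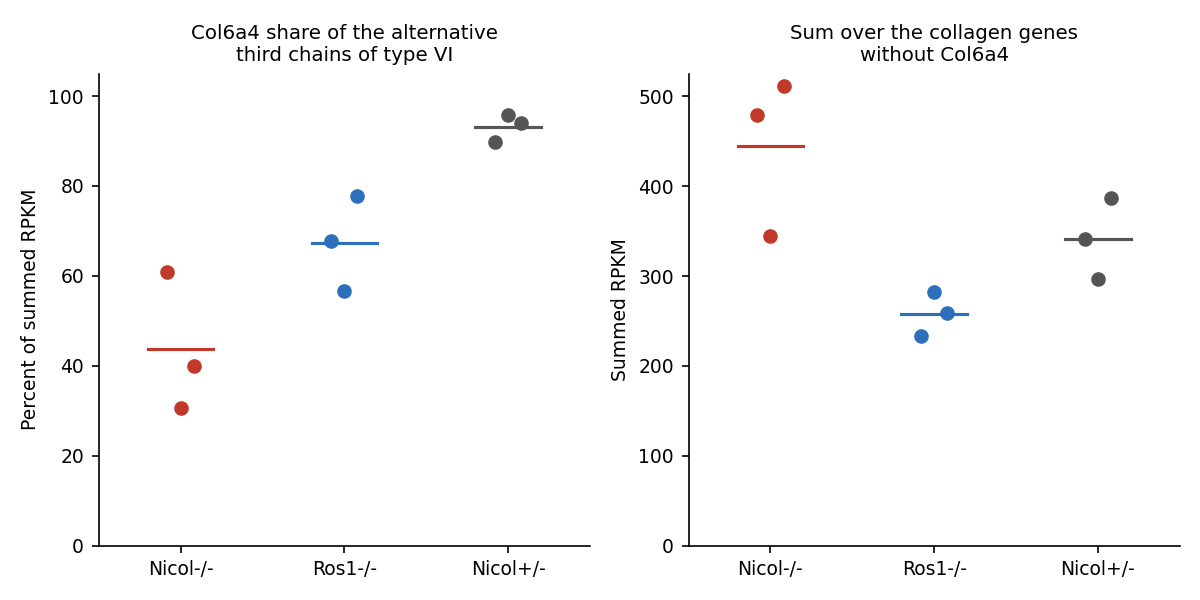
Left, the percent of the summed RPKM of Col6a3, Col6a4, Col6a5 and Col6a6 that came from Col6a4; right, the summed RPKM of the 43 collagen genes other than Col6a4; points are libraries and bars group means (n = 3 each). The share of Col6a4 was 30.6% to 60.9% in Nicol-/-, 56.7% to 77.8% in Ros1-/- and 89.9% to 95.8% in Nicol+/-.

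The sequence upstream of 4 type VI genes is shown because Col6a4 fell and Col6a1 and Col6a3 rose in Nicol-/-, with Col6a2 as the constant partner of Col6a1. Each is the part of the 250 bases before the RefSeq start site (GRCm38.p6, the build also called mm10) that lies outside the annotated gene, 5′ to 3′ on the minus strand: Col6a4 from chr9:106096829-106096941, Col6a1 from chr10:76726045-76726294, Col6a2 from chr10:76623631-76623880 and Col6a3 from chr1:90844002-90844221. Capitals mark the matches to a PEA3-type ETS motif with the letters AGGAAG and to an AP-1 motif with the letters TGANTCA, both searched on either strand.
Col6a4: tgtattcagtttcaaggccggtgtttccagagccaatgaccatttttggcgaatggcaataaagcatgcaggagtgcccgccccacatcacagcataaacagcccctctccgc
Col6a1: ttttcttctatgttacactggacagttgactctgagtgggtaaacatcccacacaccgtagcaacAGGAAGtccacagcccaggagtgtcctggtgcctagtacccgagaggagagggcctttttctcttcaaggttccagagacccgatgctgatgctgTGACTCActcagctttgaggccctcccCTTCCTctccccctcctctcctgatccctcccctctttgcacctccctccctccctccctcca
Col6a2: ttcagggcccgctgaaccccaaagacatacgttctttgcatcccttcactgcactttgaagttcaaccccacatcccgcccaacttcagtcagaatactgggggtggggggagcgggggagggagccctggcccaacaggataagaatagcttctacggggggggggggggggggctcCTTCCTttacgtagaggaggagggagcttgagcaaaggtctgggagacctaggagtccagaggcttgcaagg
Col6a3: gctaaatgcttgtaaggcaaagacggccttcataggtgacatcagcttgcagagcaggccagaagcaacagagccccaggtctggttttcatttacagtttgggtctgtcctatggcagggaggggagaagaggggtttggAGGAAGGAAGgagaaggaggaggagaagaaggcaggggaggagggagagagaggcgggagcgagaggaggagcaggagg
The printed Col6a4 sequence holds no match, Col6a1 holds 2 ETS matches and 1 AP-1 match, Col6a2 holds 1 ETS match and Col6a3 holds 2 overlapping ETS matches. These counts cover unlike lengths, 113 bases for Col6a4, 250 for Col6a1 and Col6a2 and 220 for Col6a3. In the whole 250 bases Col6a4 holds 1 ETS match, Col6a1 holds 2, Col6a2 holds 1 and Col6a3 holds 3. Over the whole 250 bases, the ETS letters occurred in 10 of the 35 collagens with a RefSeq promoter entry, Col6a4 among them, and in 32.3% of all 27025 genes. For these gene counts and those that follow, a match at any promoter entry of a gene was enough. The match counts above take the outermost start site of each gene. AP-1 letters occurred in 1 of the 35 and in 7.82% of all genes, and a TATA box with the letters TATAAA, also read on both strands, in 5 of the 35 and in 14.3% of all genes. The 3 motifs share no match in the printed sequences, and a match describes letters and does not show binding.

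Over the collagen genes as a whole, Nicol-/- had 4 higher and 1 lower of 31 tested, where 8.95% of all tested genes were higher and 11.9% lower. The lower gene was Col6a4, and the higher ones were Col6a1, Col6a3, Col23a1 and Col8a2. The median log2 fold change of the 31 was 0.27, beside 0.0045 over all genes tested, and 23 of the 31 had a positive value. Nicol-/- and Nicol+/- were free of overlap for 10 of the 31, 8 of them higher and 2 lower in Nicol-/-, beside 37.6% of all genes in either direction. An unadjusted limma p under 0.05 was reached by 10 higher collagens and 1 lower. No share over all genes is given at that unadjusted threshold, here or below, so such counts have no background beside them. With the replicate number as a block within Nicol-/- and Nicol+/-, 9 were called higher. The added collagens were Col1a1 (limma adjusted p = 0.0326), Col1a2 (0.0275), Col6a2, Col6a5 and Col4a6 (0.0181). Of all 13647 genes that block called 1399 higher and 1589 lower, against 1221 higher and 1628 lower without it. The count of higher collagens rested on single libraries: leaving out Nicol-/- replicate 1 or Nicol+/- replicate 2 gave 1, leaving out Nicol+/- replicate 3 gave 2, and leaving out Nicol-/- replicate 2 gave 9. Col6a1 was in each of these counts.

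In Ros1-/- against Nicol+/-, 5 of the 31 were lower and 0 higher, where 13.3% of all tested genes were lower and 9.52% higher. An unadjusted limma p under 0.05 was reached by 10 lower and 0 higher collagens. The 5 called were Col6a4, the type IV chains Col4a1, Col4a2 and Col4a4, and Col12a1. The median log2 fold change of the 31 was -0.24, beside 0.014 over all genes, and 23 of the 31 had a negative value. No overlap of the libraries was found for 12 of the 31, of which 11 were lower and 1 higher in Ros1-/-, beside 46.3% of all genes in either direction. The count of lower collagens was 2 without Ros1-/- replicate 1 and 3 without Ros1-/- replicate 3, Nicol+/- replicate 1 or Nicol+/- replicate 3, and Col6a4 and Col4a2 were called in each. Both knockouts were set against the same Nicol+/- libraries, so their fold changes are not independent.

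The direct comparison of Ros1-/- with Nicol-/- does not use the Nicol+/- levels. Its standard errors and p-values still rest on a spread estimated over all 9 libraries, those of Nicol+/- included. There 2 of the 31 collagens were lower, Col6a3 and Col12a1, and 0 were higher, where 1.15% of all tested genes were lower and 0.403% higher. An unadjusted limma p under 0.05 was reached by 20 lower and 0 higher collagens, again with no share over all genes beside it. The Ros1-/- and Nicol-/- libraries did not overlap for 20 of the 31, each lower in Ros1-/-, beside 23.6% of all genes in either direction, and the median log2 difference was -0.48, beside 0.013 over all genes. A log2 difference below 0 was found for 29 of the 31 collagens, with Col6a4 and Col7a1 as the exceptions, and for 47.4% of all genes. The 2 calls were lost with any of 5 libraries left out (Nicol-/- replicate 1, Nicol+/- replicate 2 or any Ros1-/- replicate), and leaving out Nicol-/- replicate 3 gave 1 and Nicol-/- replicate 2 gave 6. The summed RPKM of the collagens other than Col6a4 was 345 to 511 in Nicol-/- and 233 to 283 in Ros1-/-, against 297 to 387 in Nicol+/-.

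**Figure D3:**
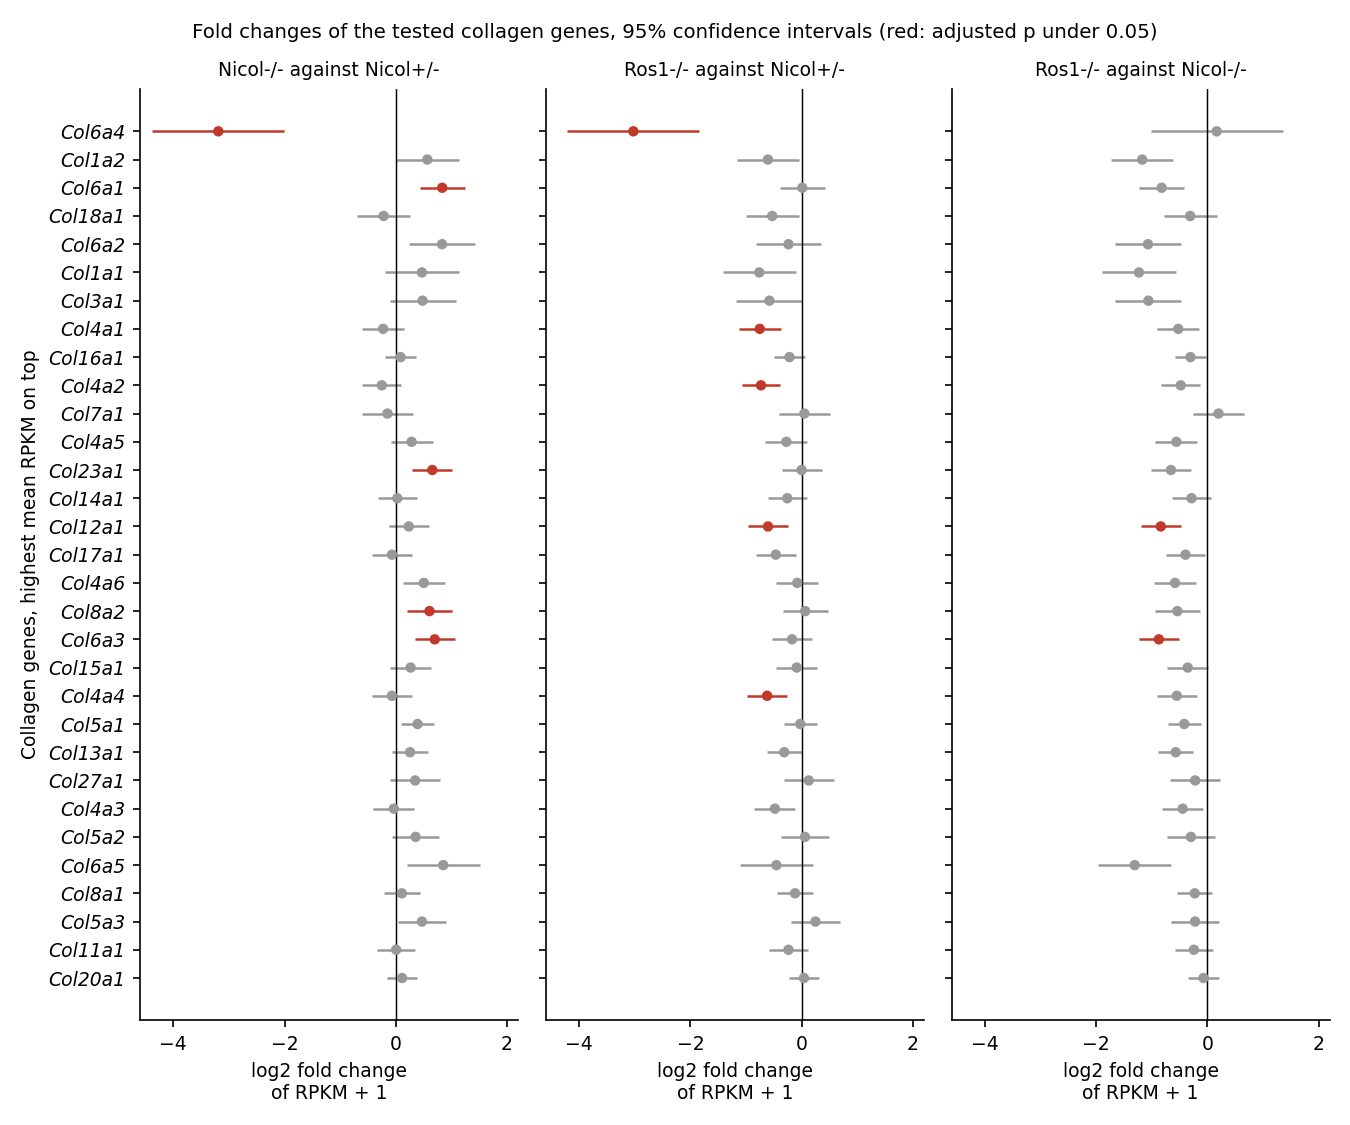
Log2 fold changes of RPKM + 1 with 95% confidence intervals for the 31 tested collagens, ordered by mean RPKM, with a panel each for Nicol-/- against Nicol+/-, for Ros1-/- against Nicol+/- and for the knockouts (Ros1-/- against Nicol-/-); red marks a limma adjusted p under 0.05. Col6a4 lies at -3.19 and -3.02 in the comparisons with Nicol+/-, and 29 of the 31 points lie below 0 in the comparison of the knockouts.

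Type IV collagen is the network former of basement membranes, and 3 of its 6 chains, Col4a1, Col4a2 and Col4a4, were lower in Ros1-/-. Col4a1 and Col4a2 form its ubiquitous network. Col4a1 read 21.9, 15.9 and 16.2 RPKM in Nicol-/-, 11.4, 14.3 and 10.8 RPKM in Ros1-/- and 21.6, 17.1 and 25.1 RPKM in Nicol+/-. Col4a2 read 18.5, 12.8 and 17.04 RPKM in Nicol-/-, 11.2, 12.3 and 10.1 RPKM in Ros1-/- and 17.8, 16.96 and 23.3 RPKM in Nicol+/-. For both genes Ros1-/- lay below both other groups without overlap, and Nicol-/- overlapped Nicol+/-. Col4a1 fell by 0.75 in Ros1-/- (SE 0.17, limma adjusted p = 0.0127) and Col4a2 by 0.73 (SE 0.15, limma adjusted p = 0.0101). Their differences in Nicol-/- were -0.23 and -0.25 (limma adjusted p = 0.361 and 0.276). The call of Col4a1 was lost without Ros1-/- replicate 1 or Nicol+/- replicate 3, with a limma adjusted p of at most 0.0525 over the alternatives tried. Col4a1 and Col4a2 lie head to head on chromosome 8, and their annotated starts overlap by 85 bases.

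The chains Col4a3, Col4a4 and Col4a5 form the network of specialised basement membranes, such as that of the kidney glomerulus. Col4a4 read 5.14, 4.28 and 4.30 RPKM in Nicol-/-, 2.13, 3.72 and 2.71 RPKM in Ros1-/- and 5.20, 4.08 and 5.29 RPKM in Nicol+/-. The Ros1-/- libraries again lay lowest, and Col4a4 fell by 0.62 in them (SE 0.16, limma adjusted p = 0.0234), a call lost without Ros1-/- replicate 1 or 3 or Nicol+/- replicate 1 or 3 (limma adjusted p of at most 0.0848). Col4a3, which shares its start region with Col4a4 on chromosome 1, was at 4.205, 2.59 and 3.10 RPKM in Nicol-/-, 2.03, 2.41 and 1.94 in Ros1-/- and 2.91, 3.05 and 4.19 in Nicol+/-. Its log2 difference in Ros1-/- was -0.48 (SE 0.16, limma adjusted p = 0.0638). Col4a5 was at 7.80 to 12.8 RPKM in Nicol-/-, 5.68 to 7.08 in Ros1-/- and 6.96 to 8.59 in Nicol+/-, and passed no test.

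Col4a6, which pairs with Col4a5 in the basement membrane around smooth muscle, lay higher in Nicol-/-. It read 11.1, 7.53 and 6.84 RPKM in Nicol-/-, 4.80, 5.91 and 5.04 RPKM in Ros1-/- and 6.46, 5.27 and 5.09 RPKM in Nicol+/-. Nicol-/- lay above both other groups, with a log2 difference of 0.50 from Nicol+/- (SE 0.17) that missed the threshold without the replicate block (limma adjusted p = 0.0592). In Nicol-/- 0 of the 6 type IV chains were called lower, beside 11.9% of all genes, and Col4a6 was higher at an unadjusted p under 0.05. The 3 of 6 called lower in Ros1-/- stand beside 13.3% of all genes, and the log2 differences of the others were -0.48 for Col4a3, -0.27 for Col4a5 (limma adjusted p = 0.270) and -0.08 for Col4a6 (0.767). In the direct test of Ros1-/- against Nicol-/-, 0 of the 6 were called (limma adjusted p = 0.118 to 0.213) and 6 of the 6 were lower at an unadjusted p under 0.05. The median log2 fold change of the 6 was -0.05 in Nicol-/-, -0.55 in Ros1-/- and -0.54 between the knockouts.

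Fibrillar collagens gave 0 calls among their 8 tested genes in any of the 3 comparisons. Of all genes 8.95% were higher and 11.9% lower in Nicol-/-, and 9.52% and 13.3% in Ros1-/-. In Ros1-/- against Nicol-/- 0.403% were higher and 1.15% lower, and 0 of 8 genes is near these shares. The replicate block within Nicol-/- and Nicol+/- called Col1a1 and Col1a2 higher in Nicol-/-. A replicate block over the 9 libraries called both genes lower in Ros1-/- than in either other group, although Ros1-/- numbers did not pair. At an unadjusted p under 0.05, 3 of the 8 were higher in Nicol-/- and 2 lower in Ros1-/- than in Nicol+/-, and 4 were lower in Ros1-/- than in Nicol-/-. Col1a1, which with Col1a2 encodes type I collagen, read 41.2, 23.2 and 53.3 RPKM in Nicol-/-, 12.8, 16.1 and 17.2 RPKM in Ros1-/- and 28.2, 19.2 and 34.4 RPKM in Nicol+/-. Col1a2 read 64.2, 39.1 and 71.7 RPKM in Nicol-/-, 20.5, 24.1 and 29.9 RPKM in Ros1-/- and 36.9, 29.6 and 49.4 RPKM in Nicol+/-. Col3a1, the chain of type III collagen, read 42.2, 20.3 and 33.3 RPKM in Nicol-/-, 12.4, 15.04 and 15.2 RPKM in Ros1-/- and 19.4, 17.4 and 29.9 RPKM in Nicol+/-. For the 3 genes Ros1-/- lay below Nicol-/- without overlap, and Nicol-/- overlapped Nicol+/-, since Nicol-/- replicate 2 was the lowest of its group. Ros1-/- also lay below Nicol+/- without overlap for Col1a1 and Col3a1, but not for Col1a2. The log2 differences of Ros1-/- from Nicol+/- were -0.76 for Col1a1 (limma adjusted p = 0.0917), -0.61 for Col1a2 (0.113) and -0.58 for Col3a1 (0.145). The log2 differences of Ros1-/- from Nicol-/- were -1.23 for Col1a1 (SE 0.29, limma adjusted p = 0.0725), -1.17 for Col1a2 (SE 0.25, 0.0552) and -1.06 for Col3a1 (SE 0.26, 0.0816). Without Nicol-/- replicate 2 the 3 genes were called lower in Ros1-/- than in Nicol-/- and higher in Nicol-/- than in Nicol+/-.

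The minor fibrillar chains were lower in level. Col5a1, the main chain of type V collagen, which sets fibril diameter, was at 3.64 to 4.89 RPKM in Nicol-/-, 2.44 to 3.17 in Ros1-/- and 2.49 to 3.27 in Nicol+/-. Its log2 difference was 0.39 in Nicol-/- (limma adjusted p = 0.0644). Col5a2, Col5a3, Col11a1 and Col27a1 had group means of 1.32 to 3.57 RPKM in Nicol-/-, 0.96 to 2.88 in Ros1-/- and 1.01 to 2.61 in Nicol+/-, and passed no test. The ratio of Col1a2 to Col1a1, chains of 1 molecule, was 1.35 to 1.68 in Nicol-/-, 1.49 to 1.74 in Ros1-/- and 1.31 to 1.54 in Nicol+/-, so that it overlapped between the groups.

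**Figure D4:**
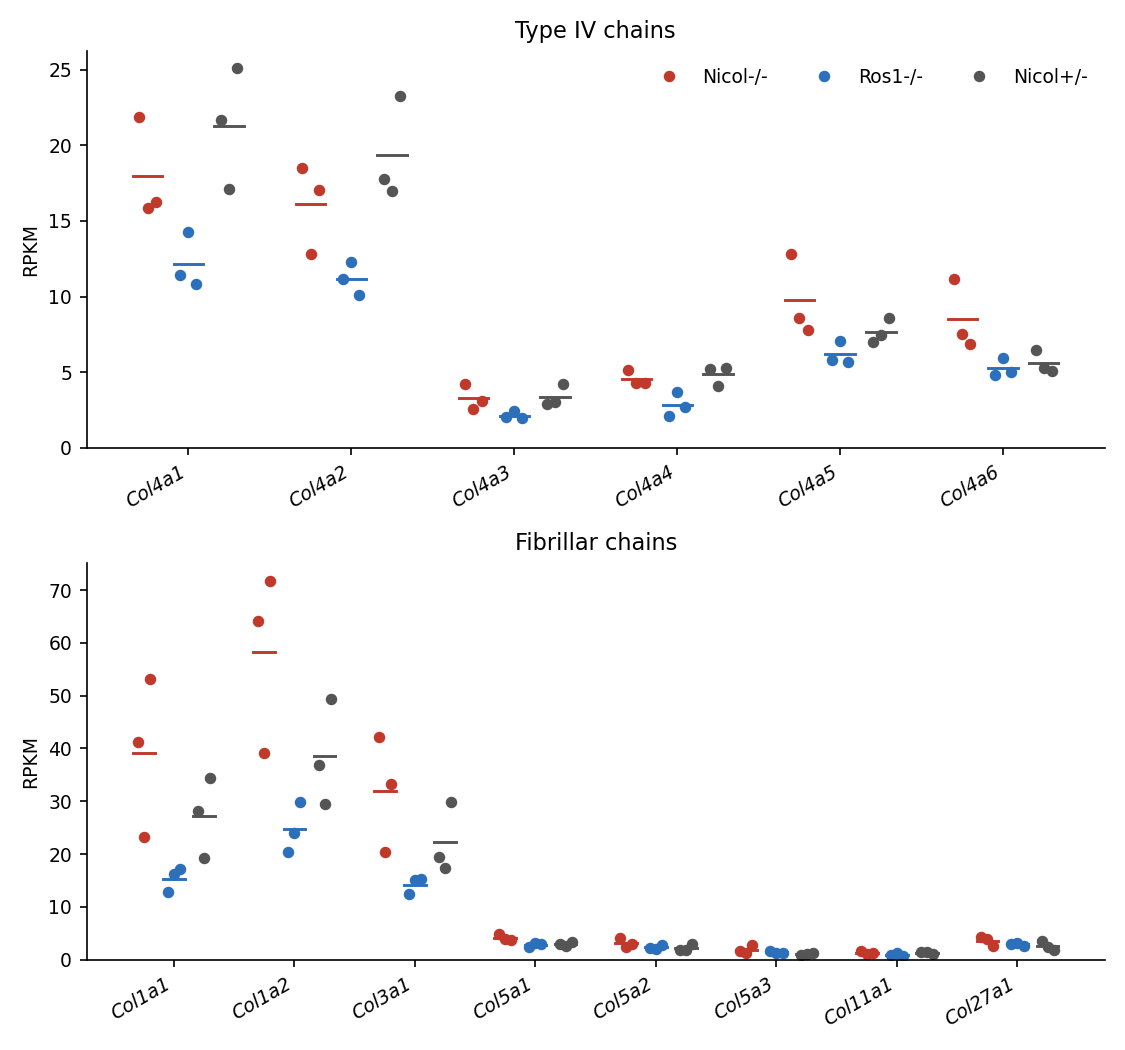
RPKM of the 6 type IV chains (top) and the 8 tested fibrillar chains (bottom) in each library, as points with the group mean as a bar (n = 3 each), for Nicol-/-, Ros1-/- and Nicol+/-. Col4a1 and Col4a2 lie lowest in Ros1-/- (10.8 to 14.3 and 10.1 to 12.3 RPKM), and Nicol-/- replicate 2 is the lowest Nicol-/- library for Col1a1, Col1a2 and Col3a1 (23.2, 39.1 and 20.3 RPKM).

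Among the other classes, 3 genes passed a test. Col12a1, which decorates type I fibrils, read 9.26, 10.7 and 7.43 RPKM in Nicol-/-, 4.0025, 5.37 and 4.55 RPKM in Ros1-/- and 9.30, 7.11 and 6.42 RPKM in Nicol+/-. Ros1-/- lay below both other groups. Col12a1 fell by 0.60 against Nicol+/- (SE 0.16, limma adjusted p = 0.0271) and by 0.84 against Nicol-/- (SE 0.16, limma adjusted p = 0.0426), and the call against Nicol+/- was lost without Ros1-/- replicate 1, Ros1-/- replicate 3 or Nicol+/- replicate 1. Col23a1, a transmembrane collagen that can be shed from the cell surface, read 12.1, 8.39 and 10.2 RPKM in Nicol-/-, 6.26, 7.10 and 4.99 RPKM in Ros1-/- and 7.20, 5.75 and 5.35 RPKM in Nicol+/-. It rose by 0.66 in Nicol-/- (SE 0.16, limma adjusted p = 0.0209), where its libraries lay above both other groups. That call was lost without Nicol-/- replicate 1, Nicol+/- replicate 2 or Nicol+/- replicate 3.

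Col8a2, a short-chain collagen known from Descemet's membrane of the cornea, read 7.26, 6.52 and 11.5 RPKM in Nicol-/-, 5.22, 6.05 and 4.77 RPKM in Ros1-/- and 5.06, 4.63 and 5.46 RPKM in Nicol+/-. It rose by 0.61 in Nicol-/- (SE 0.18, limma adjusted p = 0.0412), a call kept under 9 of 19 alternatives and lost without any of 8 single libraries, Nicol-/- replicate 2 being the exception. Col18a1, the basement membrane collagen whose end fragment is endostatin, was at 38.7, 40.6 and 33.8 RPKM in Nicol-/-, 30.6, 42.9 and 20.7 in Ros1-/- and 45.8, 45.5 and 40.7 in Nicol+/-. Its log2 difference in Ros1-/- was -0.53 (SE 0.21, limma adjusted p = 0.102), with Ros1-/- replicate 2 inside the range of Nicol+/-. Col7a1, the anchoring fibril collagen, was at 7.04 to 11.8 RPKM in Nicol-/-, 10.6 to 11.1 in Ros1-/- and 7.78 to 13.8 in Nicol+/-, and passed no test. Col17a1, the collagen of hemidesmosomes, was at 6.81 to 8.05 RPKM in Nicol-/-, 3.99 to 6.77 in Ros1-/- and 7.46 to 8.83 in Nicol+/- (limma adjusted p = 0.0634 for Ros1-/- against Nicol+/-). Col13a1, Col14a1, Col15a1, Col16a1, Col8a1 and Col20a1 passed no test, at group means of 0.93 to 17.3 RPKM.

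The genes that modify and fold the chains were read beside them. Of 15 tested, Nicol-/- had 5 higher and 1 lower and Ros1-/- had 1 higher and 1 lower, with medians of 0.17 and 0.05 on the log2 scale. Of all genes 8.95% were higher and 11.9% lower in Nicol-/-, and 9.52% higher and 13.3% lower in Ros1-/-. In Ros1-/- against Nicol-/- 0.403% were higher and 1.15% lower. These shares hold for the lists that follow too. The gene lower in both was P4ha2, a catalytic subunit of the prolyl 4-hydroxylase that stabilises the triple helix. P4ha2 read 3.64, 2.59 and 3.47 RPKM in Nicol-/-, 3.38, 5.16 and 3.804 RPKM in Ros1-/- and 76.4, 67.5 and 94.4 RPKM in Nicol+/-. The knockouts overlapped each other far below Nicol+/-. P4ha2 fell by 4.24 in Nicol-/- (SE 0.17, limma adjusted p = 5.76e-07) and by 3.98 in Ros1-/- (SE 0.17, limma adjusted p = 7.29e-07). The other catalytic subunit P4ha1 was at 5.76, 7.04 and 6.31 RPKM in Nicol-/-, 4.12, 4.03 and 5.65 in Ros1-/- and 3.29, 4.11 and 4.13 in Nicol+/-, and rose by 0.61 in Nicol-/- (limma adjusted p = 0.0146).

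Also higher in Nicol-/- were the lysyl hydroxylase Plod2 by 0.58 (limma adjusted p = 0.0220), the prolyl 3-hydroxylase P3h3 by 0.50 (0.0273), the collagen chaperone Serpinh1 by 0.39 (0.0489) and the hydroxylase partner Crtap by 0.38 (0.0498), on the log2 scale. Colgalt1, a galactosyltransferase of hydroxylysine, was higher in Ros1-/- by 0.58 (limma adjusted p = 0.00504). The shared subunit P4hb, at 436 to 469 RPKM in Nicol-/-, 500 to 542 in Ros1-/- and 455 to 546 in Nicol+/-, passed no test. Between Ros1-/- and Nicol-/- 0 of the 15 were called, with an unadjusted p under 0.05 for 4 lower and 1 higher, and the lowest limma adjusted p was 0.0539, for Serpinh1.

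Of 9 tested genes for procollagen processing and crosslinking, Loxl3, a lysyl oxidase-like enzyme, was lower in both knockouts. Loxl3 read 2.18, 2.28 and 2.29 RPKM in Nicol-/-, 1.63, 1.70 and 1.88 RPKM in Ros1-/- and 4.95, 5.20 and 5.44 RPKM in Nicol+/-, with no overlap between any of the groups. It fell by 0.93 in Nicol-/- (limma adjusted p = 0.000179) and by 1.18 in Ros1-/- (limma adjusted p = 3.22e-05). Bmp1, which cleaves the C-propeptides of fibrillar procollagens, was higher in Nicol-/- by 0.31 (limma adjusted p = 0.0476). Its level was 14.6 to 17.3 RPKM in Nicol-/-, 10.8 to 12.6 in Ros1-/- and 11.7 to 13.5 in Nicol+/-. Lox, Loxl1 and Loxl2 passed no test. Pcolce, an enhancer of that cleavage, was called higher in Nicol-/- with the replicate block alone (limma adjusted p = 0.0363, against 0.152 without it).

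The small leucine-rich proteoglycans bind fibrils and set their spacing. Of 8 tested, 3 were higher and 0 lower in Nicol-/-: decorin (Dcn) by 0.71 (limma adjusted p = 0.0163), Prelp by 0.64 (0.0144) and osteoglycin (Ogn) by 0.61 (0.00393). With the replicate block biglycan (Bgn) was also called higher (limma adjusted p = 0.0199, against 0.0744 without it). Dcn read 214, 164 and 192 RPKM in Nicol-/-, 122, 117 and 169 RPKM in Ros1-/- and 122, 98.6 and 127 RPKM in Nicol+/-. In Ros1-/- against Nicol+/- 0 of the 8 passed the test, with lumican (Lum) lower at an unadjusted p under 0.05, and Ogn was lower in Ros1-/- than in Nicol-/- (log2 difference -0.58, limma adjusted p = 0.0308).

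Laminins, nidogens and the heparan sulfate proteoglycans perlecan and agrin are partners of type IV collagen in basement membranes, and were read with Pxdn and Sparc. Of these 17, Nicol-/- had 1 lower (11.9% of all genes) and 0 higher (8.95%), with 3 higher at an unadjusted p under 0.05, while Ros1-/- had 6 lower (13.3%) and 1 higher (9.52%). Perlecan (Hspg2) read 13.3, 12.2 and 11.3 RPKM in Nicol-/-, 7.13, 8.60 and 6.32 RPKM in Ros1-/- and 12.3, 11.4 and 13.1 RPKM in Nicol+/-. Ros1-/- lay below both other groups, and Hspg2 fell in it by 0.68 (limma adjusted p = 0.00321). The other lower genes in Ros1-/- were Lamb2 (-0.53, limma adjusted p = 0.00639), agrin (Agrn, -0.68, 0.00785), Lama3 (-0.72, 0.00857), Lamb3 (-0.68, 0.0119) and Lamc1 (-0.56, 0.0178), and Lama1 was higher (0.65, 0.0125). By the direct test, 4 of the 17 were lower in Ros1-/- than in Nicol-/- (1.15% of all genes): Hspg2 (-0.67, limma adjusted p = 0.0281), Lamb2 (-0.58, 0.0308), Lama2 (-0.85, 0.0356) and Lama5 (-0.42, 0.0416). In Nicol-/- the lower gene was Lama3 (-0.48, limma adjusted p = 0.0481), whose call was lost with the replicate block (0.0633). That block gave 0 lower and 2 higher, Lama1 (0.39, limma adjusted p = 0.0328) and Lama2 (0.44, 0.0431).

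Of 8 tested genes for collagen breakdown, Nicol-/- had 4 higher and 1 lower, and Ros1-/- had 2 lower and 0 higher, Timp1 being higher there at an unadjusted p of 0.0335 (log2 difference 0.70). The gelatinases Mmp2 and Mmp9 were higher in Nicol-/- by 0.74 (limma adjusted p = 0.0435) and 0.55 (0.0137), and so were the metalloproteinase inhibitors Timp1 by 1.11 (0.0241) and Timp2 by 0.78 (0.0149). Timp1 read 17.7, 41.0 and 32.6 RPKM in Nicol-/-, 20.5, 17.9 and 26.7 RPKM in Ros1-/- and 11.4, 16.3 and 11.3 RPKM in Nicol+/-. Timp3, an inhibitor held in the matrix, was lower in Ros1-/- than in Nicol+/- (-0.47, limma adjusted p = 0.0305) and than in Nicol-/- (-0.68, 0.0429). The membrane-anchored protease Mmp15 was lower in Nicol-/- (-0.43, limma adjusted p = 0.0407, a call lost with the replicate block) and in Ros1-/- (-0.63, 0.00727). Of 6 tested collagen receptors, the receptor kinases Ddr1 (0.81, limma adjusted p = 0.0264) and Ddr2 (0.46, 0.0237) were higher and the immune receptor Lair1 (-0.60, 0.0181) was lower in Nicol-/-, and 0 passed the test in Ros1-/-, with 1 (Ddr1, higher) at an unadjusted p under 0.05.

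Markers of some cell types that make collagen also moved. For 10 fibroblast markers the calls were 4 up and 2 down in Nicol-/-, 2 up and 2 down in Ros1-/-, and 2 down in Ros1-/- against Nicol-/-. Their summed level was 442 to 634 RPKM in Nicol-/-, 424 to 655 in Ros1-/- and 342 to 412 in Nicol+/-. Gelsolin (Gsn) alone gave 311 to 477 RPKM in Nicol-/-, 332 to 508 in Ros1-/- and 206 to 250.4 in Nicol+/-. Without it the sum was 132 to 157 RPKM in Nicol-/-, 92.2 to 147 in Ros1-/- and 135 to 161 in Nicol+/-, and the groups overlapped. For 13 smooth muscle markers they were 8 up and 1 down in Nicol-/-, 1 up and 3 down in Ros1-/-, and 6 down in Ros1-/- against Nicol-/-. With the untested Pln, their summed level was 1097 to 1259 RPKM in Nicol-/-, 681 to 764 in Ros1-/- and 1843 to 1974 in Nicol+/-. Of this the smooth muscle actin Actg2 alone gave 44.3 to 46.3 RPKM in Nicol-/-, 25.2 to 32.0 in Ros1-/- and 1037 to 1329 in Nicol+/-. The other smooth muscle markers summed to 1053 to 1214 RPKM in Nicol-/-, above the 649 to 739 RPKM of Ros1-/- and the 646 to 848 RPKM of Nicol+/-. The replicate block added Hhip (limma adjusted p = 0.0218) to the markers higher in Nicol-/- and lost Synpo2 (0.0537). For 14 endothelial markers the calls were 6 down in Nicol-/- (7 with the replicate block, which added Robo4) and 9 down in Ros1-/-. They summed to 75.0 to 84.4 RPKM in Nicol-/-, 81.9 to 87.8 in Ros1-/- and 125 to 164 in Nicol+/-. Plvap alone gave 2.53 to 3.64 RPKM in Nicol-/-, 3.14 to 3.41 in Ros1-/- and 28.1 to 43.9 in Nicol+/-, a large part of that gap. Pericyte markers gave 0 calls of 6 in each comparison (an unadjusted p under 0.05 was reached by 0 in Nicol-/-, by 1 lower and 1 higher in Ros1-/-, and by 2 lower between the knockouts), at sums of 21.7 to 41.0 RPKM in Nicol-/-, 22.2 to 26.0 in Ros1-/- and 26.1 to 31.9 in Nicol+/-. The adipocyte sum was 22.3, 54.9 and 1.12 RPKM in Nicol-/-, against 0.56 to 2.67 in Ros1-/- and 1.18 to 12.8 in Nicol+/-. No marker of these lists was at 0 in every library. Of the sperm and germ cell markers, 4 of 7 tested were up in Nicol-/- and 5 of 7 in Ros1-/-. With the untested Acrv1 they summed to 239.9 to 624 RPKM in Nicol-/-, 284 to 714 in Ros1-/- and 107 to 148 in Nicol+/-. Of 6 epithelial markers, 2 were lower in each knockout (Cdh1 and Crisp1). Of 6 basal epithelial markers, 1 was lower in Nicol-/- (Itga6) and 2 in Ros1-/- (Trp63 and Itga6). The 2 tested mesothelium markers, Msln and Krt19, were higher in each knockout. Of 8 macrophage markers 1 was lower (Cx3cr1) and of 4 Schwann cell markers 1 was higher (Mbp) in Nicol-/-, with 0 calls in Ros1-/-. The part of these cell types in the collagen differences was not tested.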

How the data were processed

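Poly(A) mRNA of IS-caput epididymis was sequenced from 9 libraries, 3 per genotype. Per the labels and methods, the authors mapped the single-ended reads to mm10 with TopHat2 2.1.1, computed expression with Cufflinks 2.2.1 and deposited a normalized FPKM per gene, which for such reads is the RPKM. The deposited normalized count, scaled between libraries by the authors, is a signal rather than a raw count and served to estimate depth alone. The members and gene lists were chosen with earlier results of these data known. Genes reaching 1 RPKM in 3 or more libraries were kept, and their log2(RPKM + 1) was fitted in 1 linear model over the 9 libraries with limma 3.58.1 (R 4.3.3) with a mean-variance trend, tested on simulated data first. Nicol-/- and Nicol+/- libraries with the same number deviated together (correlations 0.103 to 0.243, others at most 0.0598), so a fit with the replicate number as a block within these groups stands beside results it changed. That fit was added after seeing the data. For pairs with Ros1-/- the correlations were -0.0911 to 0.129. The labels name no batch. Named genes were each called collagen, the 8 most abundant, each type IV chain and, per other list, up to 4 members of smallest p plus opposite calls. Further genes were named after their values were seen. Gene positions and upstream sequences came from RefSeq (GRCm38.p6).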

Additional observations from a re-analysis of the deposited data

Results flagged for a closer look

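Col6a3 and Col12a1 differed between the knockouts by the direct limma test of Ros1-/- against Nicol-/-, with log2 differences of -0.87 (adjusted p = 0.0361) and -0.84 (adjusted p = 0.0426). For Col6a3 the effects against Nicol+/- were 0.70 in Nicol-/- and -0.17 in Ros1-/-, and for Col12a1 they were 0.23 in Nicol-/- and -0.60 in Ros1-/-. Each was called under 10 of 18 alternatives.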

How the results depend on the processing

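Col6a4 was called lower in Nicol-/- under 19 of 19 alternatives and in Ros1-/- under 18 of 18. Col6a1 in Nicol-/- was called under 19 of 19, and Col4a2 in Ros1-/- under 18 of 18. Among 779 alternative values of 43 differences of single collagens, 0 changed sign, 40 lost and 37 gained a call. The 43 were the differences with an unadjusted limma p under 0.05 in the main fit or a call under some alternative. A change of sign was therefore unlikely from the start. Differences outside the 43 did change sign, such as that of Col6a4 between the knockouts (-0.40 to 0.67). The count of higher collagens in Nicol-/-, 4, was 7 with a replicate block over the 9 libraries, 9 with a replicate block within Nicol-/- and Nicol+/-, and 1 to 9 with a library left out. The count of lower collagens in Ros1-/-, 5, was 8 with the replicate block over 9 libraries and 2 to 7 with a library left out. For Ros1-/- against Nicol-/-, the count of lower collagens, 2, was 0 with no filter, 0 in a fit to the 6 libraries compared, 4 with quantile normalization, 7 with the replicate block over 9 libraries and 0 to 6 with a library left out. The no-filter fit tested 44 collagens. The numbers of Ros1-/- libraries did not pair with those of the other groups. The library with the highest Rn45s was Ros1-/- replicate 3, so leaving it out for that reason repeats a fit already counted. The cause of these shifts was not tested. At an estimated 8189628 reads in the shallowest library, 13 collagens stayed below the filter and were tested in the fit with no filter alone.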
